A study of Mus musculus with 6 samples.

Results

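The MHC class I genes of the mouse were followed in stimulated CD4+ T cells of young and old animals: 10 of the 19977 genes in the table, made up of 9 heavy chain genes (H2-K1, H2-D1, H2-Q4, H2-Q6, H2-Q7, H2-Q8, H2-T22, H2-T23 and H2-M3) and B2m, the gene of their shared light chain. They were chosen by name, with earlier results of these data known. They were taken both alone and as sums, because close copies share reads. Of the 10 genes, H2-Q6 rose about 4-fold in the old group, from 30.9 ± 5.94 to 126 ± 15.0 CPM (counts scaled to the corrected library total; SD, n = 3 each). None of the other 9 passed the test, and the 10 genes together differed by 0.20 ± 0.24 (log2, standard error), less than the error of the estimate.

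A class I molecule is a heavy chain paired with beta-2-microglobulin that carries a short peptide, usually cut by the proteasome and moved into the endoplasmic reticulum by the TAP transporter, to the surface of nearly every nucleated cell. Classical molecules show these peptides to CD8+ T cells, while nonclassical ones such as Qa-1, Qa-2 and M3 have narrower peptide sets or other receptors. T cells themselves carry class I, and interferon and NF-kB signals are known to raise its transcription.

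Cells came from wild type C57BL/6 mice, a strain that carries the b haplotype of these genes. Young mice were 6 to 8 weeks old (their sample titles carry a code of 1 month) and old mice 11 months. T cells were taken from spleen and lymph nodes, sorted as CD4+ by flow cytometry and held for 6 hours in medium with antibodies to CD3 and CD28, which trigger the T-cell receptor and its costimulation, so all 6 libraries are of stimulated cells and none is of resting cells. Each group had 3 libraries, with 16932551 to 18708205 expected counts in each. Since the labels do not tie libraries to separate animals, the p-values speak only for the spread among the 6 libraries, part of which may be technical. Young replicate 1 stood apart, with correlations over genes of 0.924 and 0.911 to young replicates 2 and 3, against 0.977 between those. Where leaving it out changes the call of a gene or sum described below, the value without it is given.

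The libraries were rich in transcripts of CD4+ T cells. Cd4, the coreceptor, stood at 320 to 639 CPM in young and 406 to 630 CPM in old libraries. The 2 CD8 T-cell markers summed to 16.6 to 27.5 CPM in young and 11.3 to 14.6 CPM in old libraries, so the groups did not overlap. Cd8b1 held most of this sum, at 14.6 to 26.1 CPM in young and 9.18 to 12.5 CPM in old libraries. Cd8a overlapped, at 1.44 to 2.37 CPM in young and 2.07 to 2.11 CPM in old libraries. The 6 B-cell markers summed to 37.4 CPM in young replicate 1, and to 11.0 to 22.5 CPM in the other libraries. The 7 myeloid markers summed to 25.2 to 46.8 CPM in young and 13.3 to 27.9 CPM in old libraries. The 4 dendritic-cell markers gave 7.31 to 15.2 and 10.26 to 12 CPM, and the 4 erythroid markers 0.637 to 4.22 and 0.378 to 1.15 CPM. Of the 5 NK-cell markers, Eomes, which T cells can also express, held most of a sum of 48.4 to 100 CPM in young and 31.3 to 39.9 CPM in old libraries. The groups did not overlap for this sum either, which followed Eomes, at 47.6 to 99.7 CPM in young and 29.7 to 37.1 CPM in old libraries. Klrb1c went the other way, at 0 to 0.376 CPM in young and 0.432 to 0.656 CPM in old libraries. The defining NK receptor Ncr1 was at 0.058 to 0.215 CPM in young and 0.109 to 0.492 CPM in old libraries. Klrk1 was at 0.462 to 1.075 and 0.927 to 2.05 CPM, and Klra8 at 0 to 0.0537 and 0 to 0.0546 CPM. The groups overlapped for Ncr1, Klrk1 and Klra8. No marker was at 0 in every library, and none of those tested passed. Markers of low level were not tested, which left 1 of 2 CD8, 5 of 6 B-cell, 1 of 5 NK-cell and 4 of 7 myeloid markers. It also left 2 of 4 dendritic-cell and 0 of 4 erythroid markers. These cells carry class I too, and their part in the class I values was not tested.

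The sequences below show how alike the promoter windows of some of these genes are. Members are also reported as sums because transcripts of some of them share reads, which is a separate matter from these windows. RefSeq promoter windows (GRCm38.p6, 250 bases before to 50 after the start) were given for 9 of the 10 genes. They were searched on both strands for the letters GGGNNNTCCC, of the kind that NF-kB factors bind, and GTTTCACTT, of the kind in interferon-response elements. The second was picked after the windows were viewed. Both were found in 5 of the 9 windows, and each stretch below is printed 5′ to 3′ on the gene's strand with the matching letters in capitals.
H2-K1, chr17:34000415-34000473 (minus strand): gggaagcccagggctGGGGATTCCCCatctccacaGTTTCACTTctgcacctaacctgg
H2-D1, chr17:35262908-35262966 (plus strand): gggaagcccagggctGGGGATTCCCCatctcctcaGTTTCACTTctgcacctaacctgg
H2-Q4, chr17:35379429-35379486 (plus strand): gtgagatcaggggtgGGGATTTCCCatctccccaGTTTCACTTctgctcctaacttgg
H2-Q6, chr17:35424662-35424720 (plus strand): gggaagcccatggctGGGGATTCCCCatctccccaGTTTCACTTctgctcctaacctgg
H2-Q7, chr17:35439007-35439064 (plus strand): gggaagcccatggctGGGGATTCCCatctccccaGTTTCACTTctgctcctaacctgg
H2-T22, chr17:36042911-36042949 (minus strand): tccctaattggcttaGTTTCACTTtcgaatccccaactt
H2-M3, chr17:37270117-37270155 (plus strand): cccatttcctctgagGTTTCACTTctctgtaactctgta

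In H2-K1, H2-D1 and H2-Q6 the first run of capitals holds 2 overlapping matches, and in H2-Q4 and H2-Q7 it holds 1. H2-T22 and H2-M3 held only the second kind, and the windows of H2-T23 and B2m held neither. Among 27025 promoter windows of the same length, 1 per gene, 5.4% held the first kind, 0.4% the second and 11 (0.041%) held both. The capitals of H2-Q6 are the same as those of H2-K1 and H2-D1, while bases around them differ. A match is a description of letters and not evidence of a bound factor.

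Levels were compared between genes per length, in FPKM (fragments scaled by transcript length and library total), and B2m was the most abundant member. B2m (chr2:122147687-122153082) stood at 3908, 3041 and 2237 FPKM in young replicates 1, 2 and 3 and at 3701, 3226 and 4395 FPKM in old replicates 1, 2 and 3. It was above every heavy chain in every library. Ordered by mean FPKM, the genes ran B2m, H2-K1, H2-D1, H2-Q4, H2-T23, H2-Q7, H2-T22, H2-Q6, H2-M3 and H2-Q8. Ranges over the 6 libraries were apart for B2m and H2-K1, for H2-D1 and H2-Q4, and for H2-Q6 and H2-M3, while the other neighbours in this order overlapped. H2-K1 was still above H2-D1 within each of the 6 libraries. H2-Q4 was above H2-T23 in only 3, and the 2 cannot be placed in order. The ratio of B2m to the summed FPKM of the 9 heavy chains was 0.942, 1.09 and 0.702 in young and 0.905, 0.960 and 1.10 in old libraries, and these ranges overlap.

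**Figure D1:**
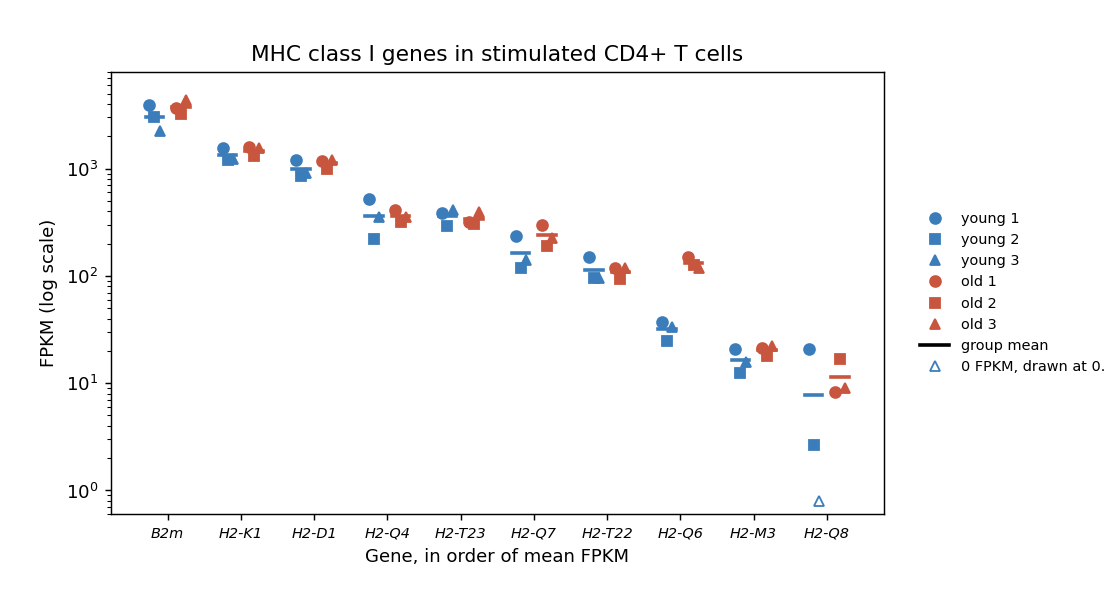
FPKM of each MHC class I gene (log axis) in each library, with genes ordered by mean FPKM; symbols mark the replicate number, colours the age group and bars the group mean (n = 3). H2-Q6 is the only gene whose old libraries, at 117 to 150 FPKM, all sit above its young libraries, at 24.9 to 37.2 FPKM, and H2-Q8 is listed at 0 in young replicate 3.

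The classical genes H2-K1 and H2-D1 encode the K and D molecules that present peptides to CD8+ T cells, and they held 69.1% to 75.1% of the heavy chain counts in each library (counts also scale with transcript length). H2-K1 (chr17:33996012-34000619) stood at 1572, 1194 and 1225 FPKM in young and 1580, 1302 and 1545 FPKM in old libraries. Young replicate 1 was as high as the old libraries, so the groups overlapped. Tested with edgeR (quasi-likelihood, Benjamini-Hochberg adjustment over all 10509 genes tested), H2-K1 differed by 0.14 ± 0.20 (log2, old minus young, standard error; adjusted p = 0.891). H2-D1 (chr17:35263094-35267497) stood at 1204, 846 and 916 FPKM in young and 1184, 991 and 1208 FPKM in old libraries. It repeated the order of H2-K1 closely, with a ratio of H2-D1 to H2-K1 between 0.708 and 0.782 in every library. Its difference by the same test was 0.18 ± 0.21 (adjusted p = 0.857). Summed, the pair differed by 0.16 ± 0.21 (adjusted p = 0.885).

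H2-Q6 belongs to the Q region genes, whose members H2-Q6 to H2-Q9 are tied to the Qa-2 antigen, a class I molecule that is known on T cells. The gene lies at chr17:35424850-35430055 on the plus strand, next to H2-Q7. Its expected counts were 605, 448 and 581 in young and 2626, 2212 and 2114 in old libraries, which is 35.01, 24.1 and 33.6 CPM against 143, 119 and 116 CPM. Every old library was above every young one, and young replicate 1 was close to the other young libraries for this gene. The difference was 2.03 ± 0.20 on the log2 scale, 4.08-fold (edgeR, adjusted p = 0.0195). It was the 1 call among the 10 members, where 0.875% of all 10509 genes tested were called. It was also the 1 member whose groups did not overlap, where 16.4% of all genes had groups that did not. The members were chosen with earlier results of these data known, so these counts are no result about them as a set. In bulk RNA of sorted cells, a change in the share of cells that express a gene and a change in RNA per cell cannot be told apart.

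Whether the call held depended on which library was left out. All 9 alternatives that kept the 6 libraries called H2-Q6, with log2 differences of 2.01 to 2.07 and adjusted p of 1.71e-17 to 0.0240. Without young replicate 1 the difference was 2.13 (adjusted p = 0.00202), in a fit that called 929 genes. Without young replicate 2 the adjusted p was 0.0605 and without young replicate 3 it was 0.0603. Leaving out old replicate 1, 2 or 3 gave an adjusted p of 0.0664, 0.125 and 0.0508. In those 5 fits with 1 library fewer, between 0 and 9 genes were called in the whole table, and the H2-Q6 difference stayed between 1.87 and 2.09.

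Reads of H2-Q6 can be told from those of its copies only in part. In the GENCODE M21 transcripts of GRCm38, 36.8% of the 50-base windows of the H2-Q6 record also occurred in the transcript of another gene, and 30.5% occurred in H2-Q7. For 100-base windows the shares were 19.3% and 18.8%. The record of H2-Q6 is 981 bases long, against 1497 for H2-Q7, and is 95.4% identical to H2-Q7, 90.2% to H2-Q4, 89.6% to H2-D1 and 88.8% to H2-K1 over its length. The 60 bases from position 76 to 135 of that record, shown because they hold the most differences between H2-Q6 and H2-Q7, are printed 5′ to 3′ with each base that differs from H2-Q6 in capitals.
H2-Q6: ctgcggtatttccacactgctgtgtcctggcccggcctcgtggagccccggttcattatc
H2-Q7: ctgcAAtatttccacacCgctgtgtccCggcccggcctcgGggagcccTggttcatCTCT
H2-D1: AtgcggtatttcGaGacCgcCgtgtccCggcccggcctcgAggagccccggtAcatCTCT
H2-K1: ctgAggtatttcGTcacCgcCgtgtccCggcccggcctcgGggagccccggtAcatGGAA
H2-Q4: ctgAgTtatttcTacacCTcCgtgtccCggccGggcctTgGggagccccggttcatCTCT

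In this stretch H2-Q7 differs from H2-Q6 at 10 bases, H2-D1 and H2-K1 at 12 each and H2-Q4 at 14. Such stretches can tell a read of H2-Q6 from one of the genes printed, while a read from a shared window is divided among genes by the counting model. GENCODE M21 holds no H2-Q8 or H2-Q9, so H2-Q6 was not compared with them and the shared shares leave them out. H2-Q5, which held 13.1% of the 50-base windows of H2-Q6, was not compared in this stretch. The values of H2-Q6, H2-Q7 and H2-Q8 are therefore uncertain as a split, while their sum does not depend on how reads were divided among them. The sum can still depend on reads shared with genes outside it. Of the 50-base windows of H2-Q7, 40.2% occurred in another gene and 20.1% in H2-Q5, and 11.9% of those of H2-Q6 occurred in H2-D1.

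H2-Q7 (chr17:35439140-35443773), a main source of Qa-2 in this strain, stood at 236, 119 and 141 FPKM in young and 301, 191 and 224 FPKM in old libraries. Young replicate 1 was above 2 of the 3 old libraries and the groups overlapped. Its difference was 0.52 ± 0.29 (edgeR, adjusted p = 0.622). Without young replicate 1 it was 0.84 ± 0.20 and passed (adjusted p = 0.0406), in a fit where 8.84% of all genes were called.

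H2-Q8 is a close relative of H2-Q7 with a single record in the table and was the lowest member. It stood at 20.8, 2.64 and 0 FPKM in young and 8.36, 16.97 and 8.96 FPKM in old libraries. The 0 in young replicate 3 allows up to 0.173 CPM at 3 counts, counting error only, while young replicate 1 was the highest of all 6. The difference was 0.57 ± 1.25 (edgeR, adjusted p = 0.945), so its error was larger than its size. Without young replicate 1 it was 3.08 ± 0.95 (adjusted p = 0.0836), a fitted value that rests in part on the library at 0.

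Summed, H2-Q6, H2-Q7 and H2-Q8 gave 390, 199 and 245 CPM in young and 579, 407 and 456 CPM in old libraries. The groups did not overlap, but the difference of 0.79 ± 0.28 did not pass (edgeR, adjusted p = 0.347). Without young replicate 1 it was 1.11 ± 0.18 (adjusted p = 0.0122). H2-Q9, the remaining Qa-2 gene and not a member, stood at 168, 83.6 and 103 CPM in young and 311, 187 and 233 CPM in old libraries, a difference of 1.04 ± 0.31 (edgeR, adjusted p = 0.235) that passed without young replicate 1 (1.38, adjusted p = 0.0117). With H2-Q9 added, the sum was 558, 283 and 348 CPM against 890, 594 and 690 CPM, a difference of 0.87 ± 0.29 (edgeR, adjusted p = 0.309), and 1.20 ± 0.20 without young replicate 1 (adjusted p = 0.0128). This sum was added after seeing the data.

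Within these 4 genes the split of the counts shifted. H2-Q6 took 6.28%, 8.51% and 9.63% of them in young and 16.1%, 20.1% and 16.8% in old libraries. H2-Q7 took 59.96% to 61.03% in young and 45.6% to 48.1% in old libraries, and H2-Q9 29.5% to 30.1% and 31.5% to 34.97%. For these 3 genes the share differed between the groups with no overlap, and no test was run on the shares. The shares are parts of the same total, so a rise of H2-Q6 changes the others and they are not separate results. In CPM, H2-Q7 had a mean of 239 in young and 343 in old libraries. H2-Q8 took 0% to 3.63% in young and 0.925% to 2.81% in old libraries, which overlapped.

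**Figure D2:**
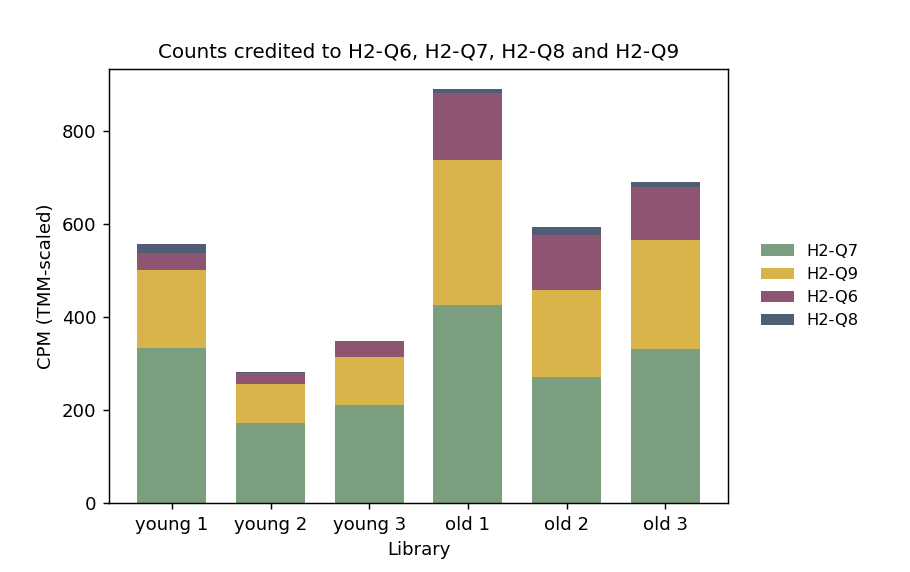
Stacked bars of CPM (scaled by TMM, a library-size correction) credited to H2-Q7, H2-Q9, H2-Q6 and H2-Q8 in each library. The 3 old totals, at 594 to 890 CPM, lie above the 3 young totals, at 283 to 558 CPM, and the H2-Q6 segment is 24.1 to 35.01 CPM in young and 116 to 143 CPM in old libraries.

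H2-Q4 (chr17:35379617-35384674) is another heavy chain of the Q region and, at the mean, the third heavy chain by level. It stood at 520, 219 and 354 FPKM in young and 408, 321 and 353 FPKM in old libraries. Its highest and its lowest libraries were both young, so the old range lay inside the young one. The difference was -0.02 ± 0.30 (edgeR, adjusted p = 0.992), and its sign turned without young replicate 1, at 0.29, and under other alternatives given in the closing section. The sum of H2-Q4, H2-Q6, H2-Q7 and H2-Q8 differed by 0.27 ± 0.30 (edgeR, adjusted p = 0.852).

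H2-T23 encodes the heavy chain of Qa-1, which shows leader peptides of other class I chains to the receptor made of CD94 and NKG2A. It lies at chr17:36029977-36032701 and stood at 385, 290 and 408 FPKM in young and 318, 303 and 393 FPKM in old libraries. It was the 1 member for which young replicate 1 was not the highest young library. The groups overlapped, with a difference of -0.11 ± 0.21 (edgeR, adjusted p = 0.932). H2-T22 (chr17:36037128-36042742), whose product is bound by some gamma-delta T-cell receptors, stood at 151, 95.9 and 94.6 FPKM in young and 118, 93.0 and 117 FPKM in old libraries. Its difference was -0.05 ± 0.22 (edgeR, adjusted p = 0.969). Without young replicate 1, which was its highest library, the sign turned, at 0.17.

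Of the 9 members with a transcript in GENCODE M21, H2-T22 shared the most 50-base windows, with 44.7% in another gene and 37.9% in H2-T10. Windows shared with H2-Q8 or H2-Q9, which have no transcript there, are not in these shares. Of its 100-base windows 14.2% were shared, fewer than the 21.9% of H2-Q7 and 19.3% of H2-Q6. Summed with H2-T10, a choice made after seeing the data, it differed by 0.03 ± 0.24 (edgeR, adjusted p = 0.983). The sum of H2-T22 and H2-T23 differed by -0.09 ± 0.20 (edgeR, adjusted p = 0.945).

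H2-M3 presents peptides that begin with formyl-methionine, as bacterial and mitochondrial proteins do. The gene (chr17:37270234-37274485) stood at 20.9, 12.6 and 15.8 FPKM in young and 21.2, 17.8 and 22.3 FPKM in old libraries. Old libraries were all above young replicates 2 and 3, young replicate 1 lay between old ones, and the groups overlapped with a difference of 0.31 ± 0.22 (edgeR, adjusted p = 0.737). Only 0.6% of its 50-base windows were found in another gene, so its value depends little on how shared reads were divided. The light chain gene B2m shared no such window with another gene and differed by 0.30 ± 0.25 (edgeR, adjusted p = 0.788).

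Across the 10 members, 7 had a positive log2 difference, where 44.9% of all genes tested did. Their median was 0.24, beside -0.03 for all genes. Several of these genes share reads and 9 lie on chromosome 17, so they are not 10 separate observations. The summed members took 1.011%, 0.717% and 0.709% of all expected counts in young and 0.976%, 0.815% and 1.02% in old libraries. Young replicate 1 lay with the upper old libraries here, and the groups overlapped.

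Young replicate 1 exceeded both other young libraries for 9 of the 10 members, as it did for 45.7% of all genes. Young replicate 2 was the lowest of the 6 libraries for 7 members, as it was for 11.9% of all genes. With young replicate 1 left out, 9 members had a positive difference and their median was 0.41, beside 0.01 for all genes. Of the 10 members, 2 were then called (H2-Q6 and H2-Q7), where 8.84% of all genes were. The 10 summed members then differed by 0.37, up from 0.20.

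**Figure D3:**
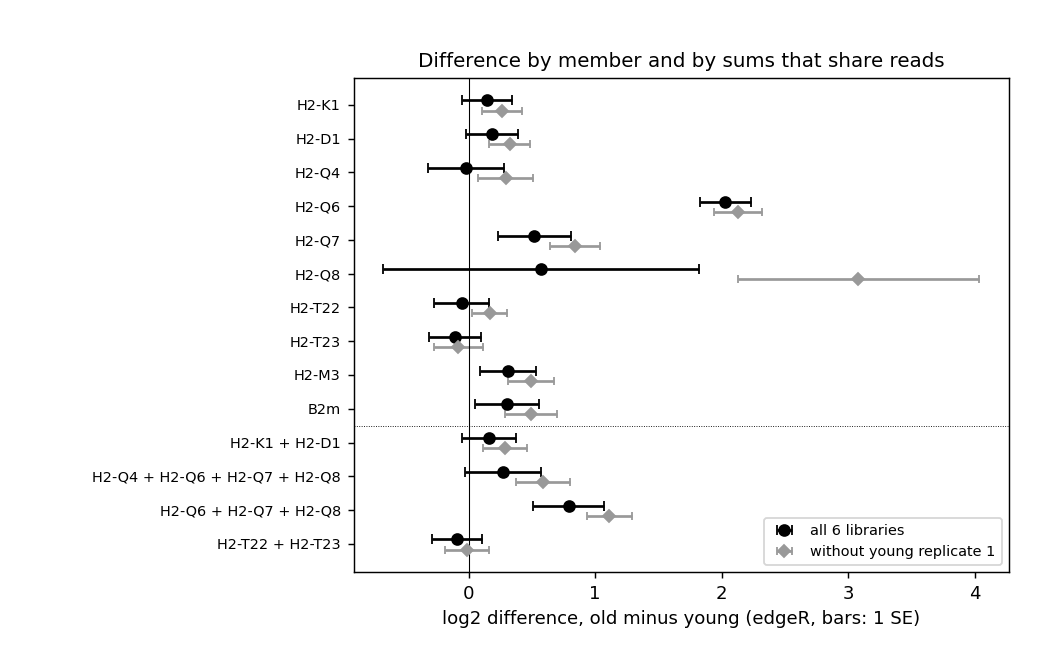
Log2 difference between old and young libraries (edgeR, bars of 1 standard error) for each MHC class I gene and for sums of members. Values are shown with all 6 libraries and without young replicate 1. H2-Q6 stands at 2.03 with all libraries and 2.13 without that library, while H2-K1, H2-D1, H2-T22 and H2-T23 lie between -0.11 and 0.32 in both fits.

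No gene that loads or trims peptides passed the test. Of 14 tested, 0 were called in edgeR, DESeq2 or limma, where 0.875%, 4.77% and 0.942% of all genes were, 1 had an unadjusted p under 0.05, as 1119 of all 10509 genes did, and their median difference was 0.08. Tap1 and Tap2, the 2 chains of the peptide transporter, differed by 0.06 ± 0.20 (adjusted p = 0.967) and -0.03 ± 0.19 (adjusted p = 0.976) in edgeR. Tapbp, which bridges the transporter and the heavy chain, differed by -0.24 ± 0.22 (edgeR, adjusted p = 0.819). The lowest p in the list belonged to Tapbpl, a peptide editor outside the loading complex, at 124 ± 11.8 CPM in young and 170 ± 23.8 CPM in old libraries (SD, n = 3 each). Its difference was 0.45 ± 0.17 (edgeR, adjusted p = 0.378), and its groups did not overlap.

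The listed proteasome genes did not pass either. None of the 5 genes of the immunoproteasome and its activator PA28 was called in edgeR, DESeq2 or limma, 0 had an unadjusted p under 0.05, and their median was 0.06. Psmb8, Psmb9 and Psmb10, the catalytic subunits of that form, differed by -0.06 ± 0.17, 0.06 ± 0.18 and -0.35 ± 0.25 (edgeR, adjusted p of 0.959, 0.961 and 0.732). For the 3 constitutive catalytic subunits that they replace, the median was -0.28, and again 0 were called in edgeR, DESeq2 or limma and 0 had an unadjusted p under 0.05.

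None of 19 transcription factors tied to class I promoters was called in edgeR, DESeq2 or limma, 1 had an unadjusted p under 0.05, and their median was 0.03. Nlrc5, the class I transactivator, stood at 468, 199 and 210 CPM in young and 332, 371 and 353 CPM in old libraries. Young replicate 1 was the highest of all, as for H2-Q4, H2-Q8 and H2-T22, and the other young libraries were the lowest. The difference was 0.27 ± 0.34 with all libraries (edgeR, adjusted p = 0.879) and 0.78 without young replicate 1 (adjusted p = 0.00863). Irf1, which carries interferon signals to these promoters, differed by -0.17 ± 0.23 (edgeR, adjusted p = 0.887). Rela, an NF-kB subunit, stood at 279 ± 16.7 CPM in young and 382 ± 48.4 CPM in old libraries (SD, n = 3 each), a difference of 0.45 ± 0.16 with groups apart (edgeR, adjusted p = 0.358).

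Of 10 interferon signal genes tested, 0 were called in edgeR or limma, 1 was called in DESeq2, 2 had an unadjusted p under 0.05, and the median was 0.06. Ifng, the interferon that T cells themselves make, stood at 6.19, 29.5 and 37.03 CPM in young and 63.9, 104 and 301 CPM in old libraries. Old libraries were all higher but spread widely, and the difference of 2.69 ± 0.77 did not pass (edgeR, adjusted p = 0.224). Socs3, a feedback inhibitor of cytokine signals, differed by 0.99 ± 0.34 (edgeR, adjusted p = 0.316). It passed without young replicate 1, at 1.503 (adjusted p = 0.00191).

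Receptors of class I and their relatives gave the 2 edgeR calls in the lists outside the members. Of 23 in the list, 7 passed the filter on low values, and 2 of those rose, where 0.742% of all genes did. The list was chosen with earlier results of these data known, so the 2 calls are no result about the list as a set. Lilrb4a stood at 21.0, 22.6 and 13.8 CPM in young and 191, 160 and 194 CPM in old libraries, a difference of 3.25 ± 0.23 (edgeR, adjusted p = 0.0142). Lilr4b stood at 9.55, 9.51 and 3.64 CPM against 76.9, 79.0 and 87.3 CPM, a difference of 3.42 ± 0.37 (edgeR, adjusted p = 0.0195). Both belong to the LILR family of immune receptors known on myeloid and some T cells, and they are close copies, so their split of reads is uncertain. Klrc1 encodes NKG2A, which reads the product of H2-T23. It stood at 0.463, 0.430 and 0.520 CPM in young and 1.85, 3.89 and 7.81 CPM in old libraries. The difference of 3.24 ± 0.59 did not pass (edgeR, adjusted p = 0.0664) but did without young replicate 1 (3.23, adjusted p = 0.0274). With a mean of 1.25 FPKM over all libraries, Klrc1 passed the filter at 1 FPKM only through its old libraries. Klrd1, the gene of its partner CD94, differed by -0.96 ± 0.84 (edgeR, adjusted p = 0.806) and by 0.77 without young replicate 1 (adjusted p = 0.293). The groups of H2-T23 itself overlapped, as given above. Cd8b1, a chain of the CD8 coreceptor, was at 19.3 ± 5.98 CPM in young and 10.8 ± 1.69 CPM in old libraries (SD, n = 3 each; edgeR, adjusted p = 0.266).

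Other class I and class I-like heavy chains numbered 45 in the list, of which 30 were in the table and 16 were tested. Of the 16, 0 were called in edgeR or limma and 1 was called in DESeq2. An unadjusted p under 0.05 was found for 3, where 1119 of all 10509 genes had one. The median difference of the 16 was 0.30 with all libraries and 0.65 without young replicate 1. Without that library 3 of them were called higher, where 5.86% of all genes were. H2-Q10, known as a secreted class I chain of liver, stood at 1.62, 0.269 and 0.462 CPM in young and 2.02, 2.38 and 3.17 CPM in old libraries. The difference of 1.68 ± 0.63 did not pass (edgeR, adjusted p = 0.380) but did without young replicate 1 (2.77, adjusted p = 0.0142). Its mean was 0.543 FPKM in young and 1.72 FPKM in old libraries, so it passed the filter at 1 FPKM only through the old group. Cd1d1, which presents lipids to NKT cells, and Mr1, which presents vitamin metabolites to MAIT cells, differed by -0.11 ± 0.44 and 0.18 ± 0.67 (edgeR, adjusted p of 0.969 and 0.967). H2-T10 differed by 0.30 ± 0.38 (edgeR, adjusted p = 0.879). Fcgrt, the class I-like receptor that carries antibodies, was below the filter. The class II presentation genes, listed for contrast, had 0 of 9 called in edgeR, DESeq2 or limma, 1 at an unadjusted p under 0.05, and a median of -0.20. Genes called higher without young replicate 1 numbered 0 of 14 for peptide loading, 0 of 5 and 0 of 3 for the proteasome lists, 1 of 19 transcription factors, 2 of 10 interferon signal genes, 3 of 7 receptors and 1 of 9 class II genes, and 0 were called lower in any of these lists. Small differences turned in sign without that library, to 0.04 for Tap2, 0.02 for Irf1 and 0.59 for Cd1d1. So did the medians of the immunoproteasome list, to -0.06, of the class II list, to 0.32, and of the receptor list, from -0.03 to 0.77.

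**Figure D4:**
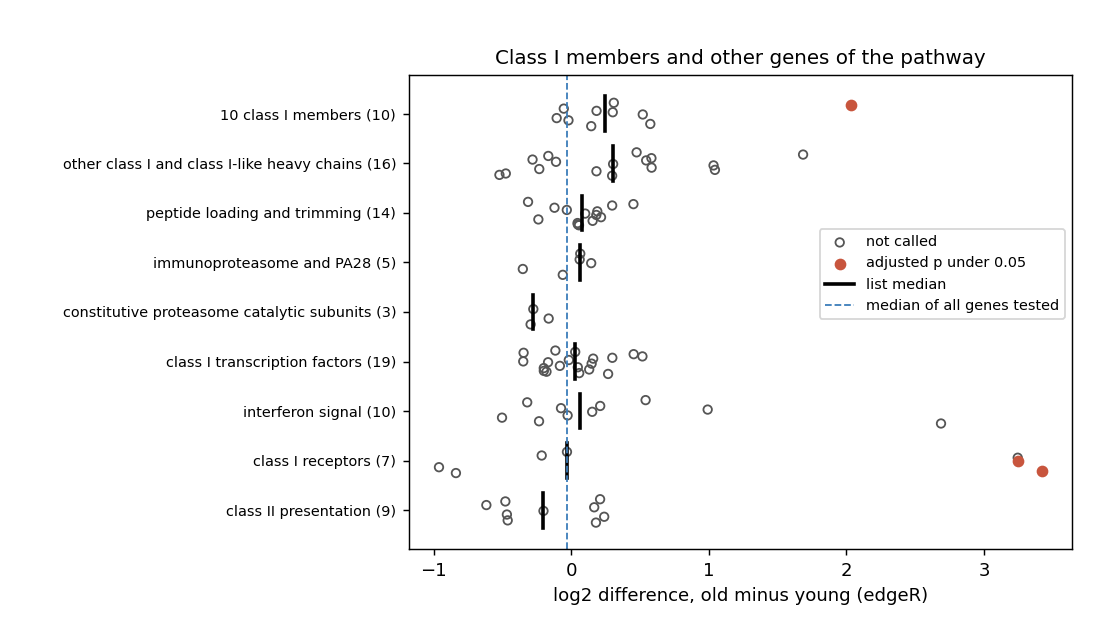
Log2 difference between old and young libraries (edgeR) of each tested gene, by list, with the number tested in brackets; filled points have an adjusted p under 0.05, black bars mark list medians and the dashed line the median of all genes (-0.03). Filled points are H2-Q6 at 2.03 among the class I genes and Lilrb4a and Lilr4b, at 3.25 and 3.42, among the receptors.

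The genes whose profile over the 6 libraries lay nearest to that of the summed members, among 10499 genes compared by root mean square difference of centred log2 CPM, were Tcaim, Clip2, Nck2, Maged2 and Leprotl1. Their differences from the summed profile were 0.0506, 0.0623, 0.0639, 0.0695 and 0.0716, where the median gene stood at 0.347. The likeness rests on 6 libraries and on a profile whose own spread was 0.232 (SD, log2).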

How the data were processed

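Total RNA was sequenced on an Illumina HiSeq, per the labels' protocols. The authors deposited 1 table in which each of 66712 RefSeq transcripts has, per the file headers, an expected count and an FPKM for every library. The submitters' processing notes name Bowtie, RSEM and GRCm38 (mm10), without versions. Which annotation release, strandedness and read filtering they used was not given in the sources used here. Reads shared by several transcripts are divided by RSEM with a model, so close class I copies may exchange counts. The authors' mean columns differed from library means by at most 3.3e-05, and 0 value columns were left without a sample.

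Both units were summed by Entrez number into 19977 genes, of which 19830 matched a RefSeq symbol. The 147 without a symbol held 0.121% to 0.211% of a library's counts. Counts were rounded. edgeR 4.0.16 (R 4.3.3) tested genes whose FPKM averaged 1 or more across libraries by its quasi-likelihood test, with TMM factors and no replicate block. A call needed a Benjamini-Hochberg p, adjusted over all genes tested, under 0.05. Standard errors are the log2 difference over the square root of F, and CPM uses TMM-scaled library sizes. Sums of members entered the same fit as 1 row in place of their members, and no p is given for the sum of all 10. The fit was tested on simulated data.

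Members and lists were chosen with earlier results of these data known. Named genes were all members, up to 4 genes per list by smallest p, a fixed set (Tap1, Tap2, Tapbp, Psmb8, Psmb9, Psmb10, Nlrc5, Irf1, H2-T10, H2-Q9, H2-Q10, Cd1d1, Mr1, Fcgrt), Cd4 and the 5 genes nearest in profile; the text gives part of them, and 1 gene is not reported here. Ncr1, Eomes, Klrb1c, Klrk1, Klra8, Klrd1 and Cd8a were singled out after their values were seen. Alternatives were no filter, a filter at FPKM 5, RLE, upper-quartile or no factors, DESeq2 1.42.0, limma 3.58.1 on log2(FPKM + 1) or log2(FPKM + 0.1), a replicate block and leaving out each library. Sums with H2-Q9 or H2-T10, the 9 heavy chains without B2m, and lists without young replicate 1 were added after seeing the data. Shared windows were counted in GENCODE M21 transcripts, which hold no H2-Q8 or H2-Q9. Figures were drawn with matplotlib 3.10.9.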

Additional observations from a re-analysis of the deposited data

How the results depend on the processing

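With 92 genes called in all, counts of called genes were 203 with no filter, 55 at a mean FPKM of at least 5, 501 in DESeq2, and 0 to 929 when 1 library was left out. Members called numbered 0 to 2 when 1 library was left out and 1 under every other alternative. The summed members kept their direction under all 15 alternatives, at 0.11 to 0.37 with 1 library left out and 0.18 to 0.25 otherwise, beside a spread within groups of 0.23 (SD, log2), and the 9 heavy chains without B2m gave 0.15. Values near 0 changed sign. H2-Q4 stood at 0.0274 with no filter, 0.0653 and 0.0657 in limma with pseudocounts of 1 and 0.1, 0.0538 with the replicate block, and -0.29 to 0.29 with 1 library left out. H2-Q8, with a library at 0, moved from 0.57 to 1.47 and 2.61 in limma with pseudocounts of 1 and 0.1 and to 2.09 with the replicate block, without passing. Leaving out 1 library gave -0.0171 to 3.08 for H2-Q8, -0.17 to 0.17 for H2-T22, -0.25 to 0.00882 for H2-T23 and -0.14 to 0.23 for H2-T22 with H2-T10. The cause of these changes was not tested. Of 150 member values under the alternatives, 134 kept both direction and call.

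The labels do not say whether replicate numbers pair the libraries, and the deviations leave it unsettled. Deviations of same-numbered libraries correlated at 0.223, -0.029 and 0.182. Young replicates 1 and 3 each correlated best with the old library of the same number, while young replicate 2 correlated best with old replicate 3 (0.339). With the replicate block 119 genes were called, and H2-Q6 stood at 2.04 (edgeR, adjusted p = 0.0120), again the 1 member called. The summed members stood at 0.21.

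With 3 libraries a group, the differences of H2-K1 and H2-D1 lie within 1 standard error. H2-Q8 had 0 and 49 expected counts in young replicates 3 and 2, and what limits its precision was not tested.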

Other observations

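Below the filter on low values, the class I pseudogene H2-Bl stood at 0.347, 0.107 and 0.173 CPM in young and 1.53, 1.026 and 1.15 CPM in old libraries. The groups did not overlap, at a level of few counts per library, and no test was run. H2-T10, which shares sequence with H2-T22, stood at 111 CPM in old replicate 1 and at 40.8 to 63.2 CPM in the other 5 libraries. A predicted H2-K1 transcript held 1636 expected counts in young replicate 3 and 21.4 to 32.1 in the other libraries, out of 36479 counts for the gene in that library. The sum over the transcripts of H2-K1 does not depend on that split.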
